A study of Mus musculus with 12 samples.

Results

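The 10 genes described here belong to the NODAL pathway of the mouse: Nodal, Tdgf1, Acvr2b, Smad2, Foxh1, Lefty1, Lefty2, Pmepa1, Smad7 and Skil. They were taken by symbol from a table of read counts, in which each symbol had 1 row, so the set is 10 of the 55487 genes of the table. The rule that took them uses no expression value, but it was set with earlier results of these data known. NODAL is a secreted ligand of the TGF-beta family that binds type I and type II activin receptors together with a co-receptor and leads to phosphorylation of SMAD2 and SMAD3. These join SMAD4 and act on DNA with partners such as FOXH1, and among the genes they switch on are the pathway's own inhibitors, the LEFTY proteins and SMAD7. In pluripotent cells of the epiblast the pathway is known for its part in maintaining the primed state and in forming mesendoderm. Activin A signals through the same receptors without the co-receptor.

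The cells were E14 Tg2a, a mouse embryonic stem cell line, with 3 separate clones in which Pcbp1 was knocked out (KO) and 3 separate control clones, named Scr in the series text and WT in the sample labels. Pcbp1 encodes a poly(C)-binding protein that binds RNA. In the naive condition the clones grew in N2B27 with LIF, 1 uM PD0325901, a MEK inhibitor, and 3 uM CHIR99021, a GSK3 inhibitor, after 3 passages of adaptation. In the other condition they spent 48 h on fibronectin in medium with 20 ng/ml activin A, 12 ng/ml bFGF and 1% KOSR, which yields epiblast-like cells (EpiLCs), so both genotypes received a ligand of the pathway in that condition and in that condition only. Polyadenylated RNA was sequenced from every clone in both conditions, which gives 12 libraries in 4 groups of 3, named by condition and genotype (such as naive KO). The p-values rest on the spread between libraries of a group, each from a separate clone. The main fit takes the 12 libraries as independent, although each clone gave 1 library per condition. Its tests between conditions and of the interaction therefore leave out that pairing, and fits with the clone as a block are named where used. In those fits the clone is inferred from the replicate number, since the labels do not say which libraries share a clone.

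Total counts ranged from 27146744 to 42204511 per library. The targeted gene Pcbp1 fell in the knockouts: the log2 fold change was -0.60 ± 0.111 in naive cells and -1.14 ± 0.112 in EpiLCs (± SE, 3 libraries a group, edgeR adjusted p of 0.00599 and 0.000137). The summed level of 10 naive pluripotency markers was 4658.2 to 5056.4 CPM, read counts scaled to the library's total, in the 6 naive libraries, and that of 9 formative and primed markers was 3031.8 to 5402.6 CPM in the 6 EpiLC libraries. EpiLC WT replicate 2 stood apart, with 1095.8 CPM of naive markers against 459.8 to 590.6 CPM in the other EpiLC libraries, and with the lowest sum of formative markers. Results on EpiLC WT are therefore given with and without it where it moved them. Summed endoderm markers were at 28.1 to 55.1 CPM (WT) and 103.7 to 143.0 CPM (KO) among EpiLCs, where 9 of the 12 tested markers, of 16 listed, rose in KO. Among naive libraries the sum was 244.8 to 288.2 CPM (WT) and 342.2 to 592.4 CPM (KO), most of it from 1 gene, Lama1 (227 to 280.3 and 322.7 to 582.7 CPM), singled out after its values were seen. In naive KO 2 of the 12 tested markers rose, Hnf4a and Col4a1, and Lama1 did not pass (0.73 ± 0.326, edgeR adjusted p = 0.198). The endoderm factors Gata4, Sox17 and Foxa2, also singled out afterwards, had -1.21, -1.41 and -2.14 there and did not pass either (edgeR adjusted p of 0.122 to 0.161). Their naive libraries held only 0.267 to 1.14, 0.0279 to 0.212 and 0 to 0.133 CPM. The median log2 fold change of the 12 tested markers was 0.30 in naive KO. The part of the endoderm markers in the results below was not tested. Markers of fibroblasts and feeders summed to 8.55 to 33.4 CPM over the 12 libraries.

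In naive cells 4 of the 10 genes fell in KO and none rose: both Lefty genes, Foxh1 and Pmepa1. RNA of whole cultures was measured, so fewer cells with a transcript and less of it per cell cannot be told apart. At an unadjusted p under 0.05 none rose either and 5 fell, and by DESeq2 4 members were called, beside 2471 of 20708 genes. A gene was called at an edgeR adjusted p under 0.05 over the 18134 genes tested, and all 10 members were among those tested. Over all tested genes 9.23% were called in that comparison, 4.27% as risen and 4.95% as fallen. The libraries of the 2 genotypes did not overlap for 9 of the 10 genes, lower in KO for 8 and higher for 1 (Acvr2b), beside 30.4% of all tested genes. The median log2 fold change was -0.30 over the 10 genes and 0 over all tested genes. In EpiLCs 1 of the 10 genes, Foxh1, fell and none rose, beside 15.1% of all genes called (7.22% risen and 7.86% fallen), and the groups did not overlap for 4 of the 10, beside 33.3% of all genes. At an unadjusted p under 0.05, 1 member was higher and 2 were lower in EpiLC KO. No share of all genes was counted for the unadjusted p. By DESeq2 2 members were called in EpiLCs, beside 3530 of 20708 genes.

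Nodal encodes the ligand itself (ENSMUSG00000037171.6, GRCm38 chromosome 10, 61417972 to 61425338, plus strand). Replicates 1, 2 and 3 of naive WT gave 91, 76.8 and 78.1 CPM and those of naive KO 68, 63.2 and 64.8 CPM. Every KO library was thus below every WT library in naive cells. The log2 fold change was -0.33 ± 0.148 (SE, n = 3 per group), which did not pass (edgeR adjusted p = 0.202). The EpiLC values of Nodal were 99, 83.1 and 72.5 CPM for WT and 71, 60 and 89.1 CPM for KO. Those groups overlapped, with a log2 fold change of -0.21 ± 0.147 (edgeR adjusted p = 0.37). Nodal also did not pass between the conditions, with 0.05 ± 0.147 in WT (adjusted p = 0.791) and 0.17 ± 0.148 in KO (adjusted p = 0.359).

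Tdgf1 encodes CRIPTO, the co-receptor that NODAL needs (ENSMUSG00000032494.12, chromosome 9, 110939603 to 110946158, minus strand). Its naive levels were 437.2, 497.5 and 439.8 CPM in WT and 362.1, 417.2 and 366 CPM in KO. All 3 KO libraries lay below the WT libraries, but the difference of -0.26 ± 0.147 on the log2 scale did not pass (edgeR adjusted p = 0.309). In EpiLC WT the libraries were at 493.9, 301.8 and 349.7 CPM and in EpiLC KO at 423.1, 390.9 and 430.3 CPM. The KO values lay inside the range of the WT values (0.12 ± 0.147, adjusted p = 0.631). Without EpiLC WT replicate 1, the highest of the EpiLC libraries, Tdgf1 was lower in EpiLC WT than in naive WT by a called difference of -0.49 (edgeR adjusted p = 0.00257), against -0.26 with it (adjusted p = 0.152).

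Acvr2b encodes a type II activin receptor that binds NODAL and activin (ENSMUSG00000061393.14, chromosome 9, 119402118 to 119434995, plus strand). It gave 25, 19.4 and 25.8 CPM in naive WT and 28.8, 28.6 and 26.4 CPM in naive KO. In EpiLCs it gave 45.6, 36.6 and 42.5 CPM in WT and 48.4, 49.7 and 46.3 CPM in KO. KO libraries were above WT libraries in both conditions without overlap, yet neither difference passed (0.26 ± 0.128, edgeR adjusted p = 0.254, and 0.21 ± 0.127, adjusted p = 0.289). Between conditions Acvr2b rose, by 0.83 ± 0.129 in WT (adjusted p = 0.000163) and 0.79 ± 0.128 in KO (adjusted p = 0.000213). Smad2, the receptor-regulated SMAD of the pathway (ENSMUSG00000024563.16, chromosome 18, 76241580 to 76310963, plus strand), passed in none of the comparisons. Its naive values were 72.3, 88.3 and 83.2 CPM in WT and 92.7, 86.5 and 88.3 CPM in KO. Its EpiLC values were 69.5, 90.8 and 85.6 CPM in WT and 93, 90.9 and 83.9 CPM in KO. The 4 groups overlapped, and the log2 fold changes of the 4 pairwise comparisons lay between 0 and 0.13.

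Foxh1 encodes the forkhead factor that brings SMAD2 and SMAD3 complexes to DNA (ENSMUSG00000033837.5, chromosome 15, 76668225 to 76669948, minus strand). Naive WT libraries held 44.3, 40.4 and 47.3 CPM and naive KO libraries 19.8, 17 and 23.1 CPM. EpiLC WT libraries held 124.4, 94.8 and 102.9 CPM and EpiLC KO libraries 40.7, 42.7 and 48.5 CPM. In each condition every KO library was below every WT library, and the range of EpiLC KO overlapped that of naive WT. Foxh1 fell in both comparisons of genotype, with a naive log2 fold change of -1.14 ± 0.14 (edgeR adjusted p = 0.000499) and an EpiLC log2 fold change of -1.29 ± 0.139 (adjusted p = 0.000192). Foxh1 rose from naive to EpiLC by 1.29 ± 0.139 in WT (adjusted p = 8.93e-06) and by 1.14 ± 0.14 in KO (adjusted p = 2.17e-05). The test of whether the effect of genotype differed between conditions gave -0.15 ± 0.194 (adjusted p = 0.825). Leaving out any 1 library moved the naive difference between -1.29 and -1.06 and the EpiLC difference between -1.37 and -1.17, and all of these were called.

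Lefty1 and Lefty2 encode secreted antagonists that bind NODAL or its co-receptor, and both are targets of the pathway. Lefty2 (ENSMUSG00000066652.5, chromosome 1, 180893108 to 180899103, plus strand) and Lefty1 (ENSMUSG00000038793.8, chromosome 1, 180935022 to 180938400, plus strand) lie 35918 bases apart with 1 gene between them. They are close copies. The coding sequences of GENCODE vM21 on GRCm38 are 1104 bases long in both and identical at 91.8% of positions, with 90 mismatches, no gap and a longest identical run of 140 bases. How far reads could be told apart is therefore part of each Lefty value. Of the 75-base stretches of the longest transcript, 11.2% in Lefty1 and 7.2% in Lefty2 occur in the other gene, and with 100-base stretches 4.8% and 3.1%. The stretch of coding sequence with the most mismatches, bases 46 to 165 from the start codon, is shown 5′ to 3′ with its 34 mismatched bases in capitals. Only the coding sequence was searched for it. Where reads separate the 2 genes best over the whole transcripts was not tested.
Lefty1: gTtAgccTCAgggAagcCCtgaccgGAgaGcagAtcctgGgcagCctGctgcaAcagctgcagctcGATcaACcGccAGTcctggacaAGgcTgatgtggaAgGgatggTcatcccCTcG
Lefty2: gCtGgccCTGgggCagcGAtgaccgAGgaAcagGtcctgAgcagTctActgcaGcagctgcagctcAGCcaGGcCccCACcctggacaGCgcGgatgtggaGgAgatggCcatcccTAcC

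Lefty1 was low in naive cells and lower still in naive KO. Replicates 1, 2 and 3 gave 16.1, 2.63 and 11.5 CPM in naive WT and 1.4, 0.919 and 0.8 CPM in naive KO. The WT libraries differed widely among themselves, and WT replicate 2 was the nearest to the KO libraries, without overlap. The log2 fold change of Lefty1, which fell, was -3.28 ± 0.603 (edgeR adjusted p = 0.0058), from a mean of 10.1 ± 6.87 to 1.04 ± 0.316 CPM (SD, n = 3). Without any 1 naive library the difference lay between -3.76 and -2.81 and was called each time. In EpiLCs Lefty1 gave 248.8, 87.3 and 225.6 CPM in WT and 122, 107.9 and 142 CPM in KO. WT replicates 1 and 3 were above every KO library, while WT replicate 2, the library with more naive markers, was below them all. The log2 fold change of -0.60 ± 0.467 did not pass (edgeR adjusted p = 0.428), nor did the -0.94 ± 0.429 found without WT replicate 2 (adjusted p = 0.155).

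Lefty2 had the same order of groups in naive cells at higher levels. Its naive libraries held 92.6, 22.1 and 51.4 CPM in WT and 11.6, 4.76 and 3.45 CPM in KO. Again WT replicate 2 was the lowest WT library and all KO libraries were below it. Lefty2 fell by 3.07 ± 0.503 on the log2 scale (edgeR adjusted p = 0.00303), and its log2 fold change without any 1 naive library lay between -3.77 and -2.52, called each time. In EpiLCs Lefty2 was at 130.7, 77.7 and 104.5 CPM in WT and 53.5, 42.3 and 54.1 CPM in KO. The EpiLC groups did not overlap. The difference of -1.06 ± 0.459 did not pass in the fit of all 12 libraries (adjusted p = 0.14), but did in a fit of the 6 EpiLC libraries alone (-1.04 ± 0.186, adjusted p = 0.0122). It was -1.24 without EpiLC WT replicate 2 (adjusted p = 0.104).

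**Figure D1:**
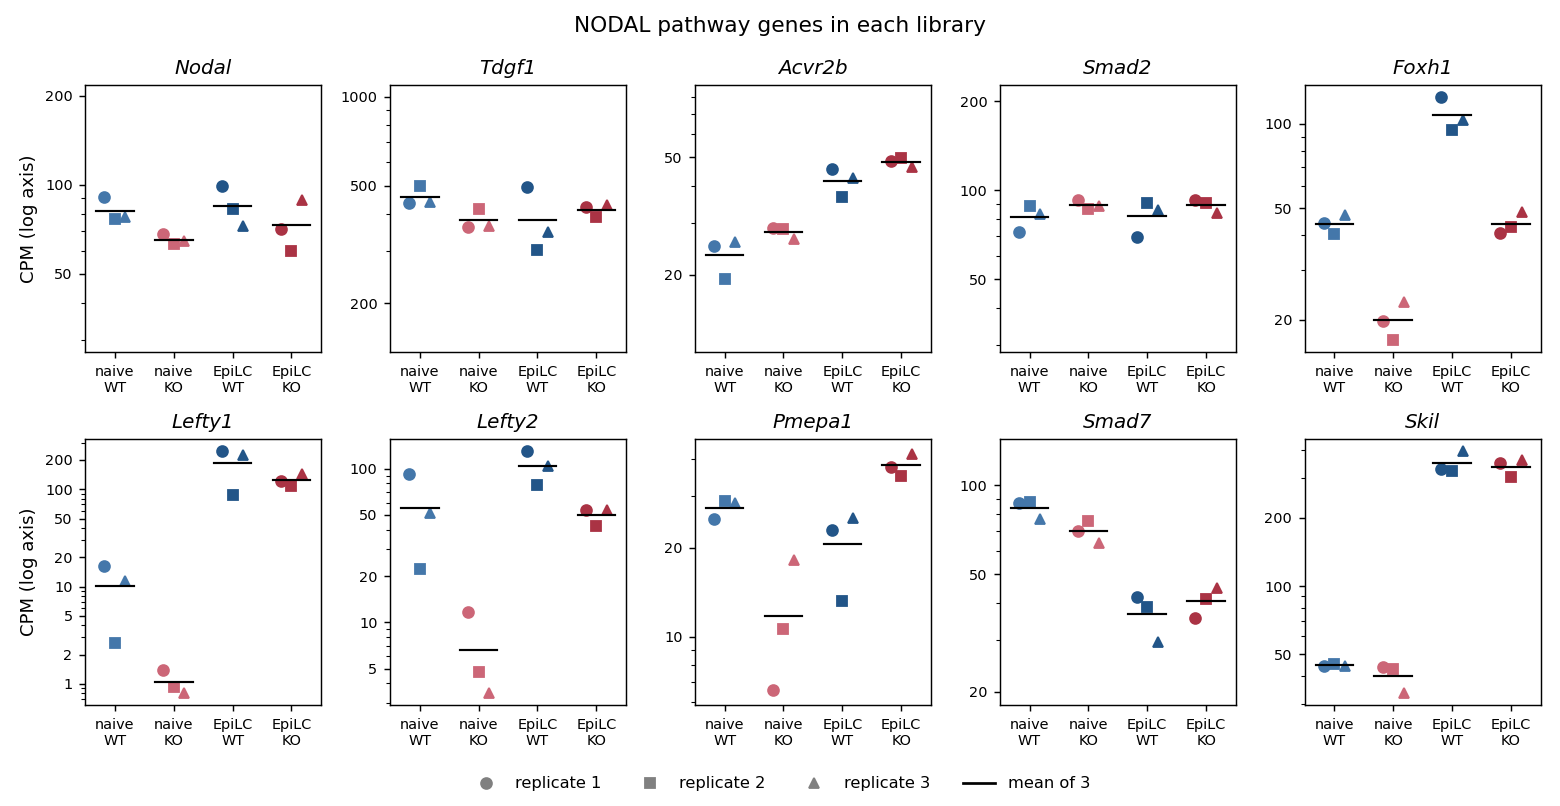
Level of each of the 10 genes in each of the 12 libraries, in CPM on a log axis, by group; symbols mark replicates 1 to 3 and bars the mean of 3. Lefty1, Lefty2 and Foxh1 are lower in naive KO than in naive WT without overlap, while Smad2 lies between 69.5 and 93 CPM in every library.

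Pmepa1 encodes a membrane protein that holds SMAD2 and SMAD3 away from the receptor and is itself induced by TGF-beta (ENSMUSG00000038400.15, chromosome 2, 173224458 to 173276533, minus strand). Naive WT libraries gave 25, 28.8 and 28.2 CPM and naive KO libraries 6.57, 10.6 and 18.1 CPM. Its EpiLC levels were 22.9, 13.2 and 25.2 CPM for WT and 37.4, 34.9 and 41.6 CPM for KO. The order of the genotypes was opposite in the 2 conditions, with every KO library below every WT library in naive cells and above in EpiLCs. Pmepa1 fell in naive KO by 1.22 ± 0.308 on the log2 scale (edgeR adjusted p = 0.0278). This call was lost without any 1 naive library other than KO replicate 3, with adjusted p of 0.0503 to 0.0887, and in a fit of the 6 naive libraries alone (-1.21, adjusted p = 0.0559). The EpiLC difference of 0.89 ± 0.303 did not pass (edgeR adjusted p = 0.0668), but did with DESeq2 (0.89, adjusted p = 0.0353) and in a fit of the 6 EpiLC libraries alone (0.91, adjusted p = 0.0354). Without EpiLC WT replicate 2 it was 0.66 (adjusted p = 0.151).

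Smad7 encodes an inhibitory SMAD that blocks the receptors (ENSMUSG00000025880.11, chromosome 18, 75367529 to 75395935, plus strand). Its naive values were 86.9, 88 and 76.9 CPM in WT and 70.2, 75.4 and 63.6 CPM in KO. Its EpiLC values were 41.9, 38.7 and 29.4 CPM in WT and 35.6, 41.3 and 44.8 CPM in KO. The naive groups did not overlap, the EpiLC groups did, and the genotype passed in neither (-0.27 ± 0.138, edgeR adjusted p = 0.266, and 0.15 ± 0.139, adjusted p = 0.522). Skil encodes SnoN, a nuclear repressor of SMAD activity and a target of the pathway (ENSMUSG00000027660.16, chromosome 3, 31095058 to 31122577, plus strand). Naive WT libraries gave 44.6, 45.2 and 44.6 CPM and naive KO libraries 43.9, 43.2 and 33.6 CPM. EpiLC WT libraries gave 330.8, 322.5 and 396.6 CPM and EpiLC KO libraries 348.4, 303 and 359.5 CPM. Skil did not pass between genotypes, with -0.15 ± 0.119 among naive libraries (edgeR adjusted p = 0.474) and -0.05 ± 0.117 among EpiLC libraries (adjusted p = 0.799).

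**Figure D2:**
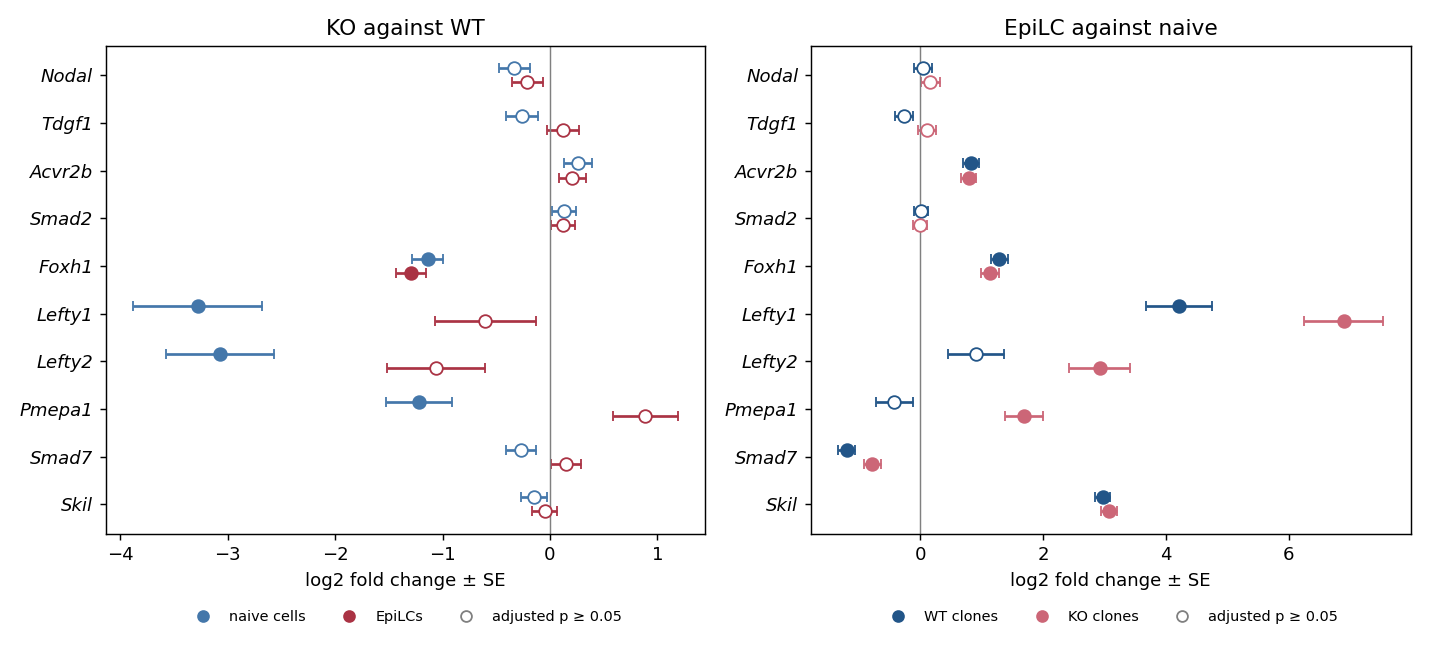
Log2 fold change ± SE of each of the 10 genes in the comparisons of genotype (KO against WT, in naive cells and in EpiLCs) and of condition (EpiLC against naive, in WT and in KO), from the edgeR fit of 12 libraries; open symbols have an adjusted p of at least 0.05. Lefty1 and Lefty2 lie furthest below 0 for genotype in naive cells, at -3.28 and -3.07, and Foxh1 is the member with a filled symbol for genotype in EpiLCs.

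From naive culture to EpiLCs, 4 of the 10 genes rose in WT (Lefty1, Skil, Foxh1 and Acvr2b) and 1, Smad7, fell. In KO 6 rose, these 4 with Lefty2 and Pmepa1, and Smad7 fell. Of all tested genes 52.7% were called in WT (26.4% risen, 26.3% fallen) and 55.2% in KO (27.1% risen, 28.1% fallen), so the 5 of 10 called in WT are close to the background. The median log2 fold change of the 10 genes was 0.44 in WT and 0.96 in KO, beside -0.01 and -0.04 over all tested genes. The naive and EpiLC libraries did not overlap for 5 of the 10 genes in WT and 7 in KO, beside 59.2% and 64.2% of all tested genes. Lefty1 rose 18.6-fold in WT (log2 4.21 ± 0.538, edgeR adjusted p = 3.41e-05) and 118.9-fold in KO (6.89 ± 0.645, adjusted p = 2.32e-06). Skil rose 7.81-fold in WT and 8.37-fold in KO, with adjusted p of 4.7e-09 and 3.68e-09 from edgeR. Smad7, which like Skil is known as a target of the pathway, fell by 1.19 ± 0.14 on the log2 scale in WT (adjusted p = 1.71e-05) and by 0.78 ± 0.139 in KO (adjusted p = 0.000406). Lefty2 rose in KO by 2.92 ± 0.501 (adjusted p = 0.000315). In WT its change of 0.91 ± 0.458 did not pass (adjusted p = 0.111), but did with the clone as a replicate block (1.10 ± 0.308, adjusted p = 0.0138) and without naive WT replicate 1 (1.48, adjusted p = 0.0195). Pmepa1 rose in KO by 1.69 ± 0.311 (adjusted p = 0.000522) and had -0.42 ± 0.303 in WT (adjusted p = 0.268).

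Whether the effect of genotype differed between the conditions was tested as an interaction, for which 0.381% of all genes were called. By edgeR 0 of the 10 genes passed and 3 had an unadjusted p under 0.05 (Lefty1, Lefty2 and Pmepa1). The share of all genes under that unadjusted p was not counted, so these 3 cannot be set against a background. DESeq2 called 1, beside 507 of 17908 genes. The values, as the EpiLC difference minus the naive difference, were 2.68 ± 0.762 for Lefty1 (edgeR adjusted p = 0.168), 2.01 ± 0.661 for Lefty2 (adjusted p = 0.221) and 2.11 ± 0.432 for Pmepa1 (adjusted p = 0.067). A further fit had the clone, inferred from the replicate number, as a replicate block and compared same-numbered libraries of a genotype. There Lefty1 (2.52 ± 0.324, edgeR adjusted p = 0.019) and Pmepa1 (2.26 ± 0.371, adjusted p = 0.0343) passed, and Lefty2 did not (1.96, adjusted p = 0.0783). By DESeq2 the member called was Pmepa1 (2.12, adjusted p = 0.000616). In the edgeR fit without a block, Lefty1 passed without naive WT replicate 2 (3.18, adjusted p = 0.0303) and Pmepa1 without naive KO replicate 3 (2.61, adjusted p = 0.0176). Neither passed without any other 1 library. Leaving out each library in turn gave 2.22 to 3.18 for Lefty1 and 1.85 to 2.61 for Pmepa1, with edgeR adjusted p of at most 0.309 and 0.158. Without EpiLC WT replicate 2, 0 members passed.

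Levels of different genes were compared as RPKM, which divides CPM by the length of the exons in kilobases. In naive WT the order was Tdgf1 (174.7 RPKM), Nodal (39.1), Foxh1 (32.2), Lefty2 (21.2), Smad7 (18.6), Smad2 (9.25), Acvr2b (5.96), Lefty1 (5.73), Pmepa1 (5.56) and Skil (4.62). The ranges over 3 libraries overlapped between neighbours from Foxh1 to Lefty2, Lefty2 to Smad7, Acvr2b to Lefty1 and Lefty1 to Pmepa1. Lefty1 was the last of the 10 genes in naive KO, at 0.591 ± 0.18 RPKM (SD, n = 3), and had the second highest mean in both EpiLC groups, at 106.5 ± 49.7 in WT and 70.5 ± 9.73 in KO. Tdgf1 was first in all 4 groups, though its range overlapped that of Lefty1 in EpiLC WT. Foxh1 was at 78.6 ± 11.2 RPKM in EpiLC WT, where its range overlapped that of Lefty1, and at 32.2 ± 2.96 in EpiLC KO, where its range overlapped those of Nodal and Skil.

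The balance of antagonist and ligand transcripts was given by the sum of Lefty1 and Lefty2 RPKM over Nodal RPKM in the same library. The 3 naive WT libraries had ratios of 1.03, 0.272 and 0.704 and the naive KO libraries 0.161, 0.0778 and 0.0573. In EpiLCs it was 4.05, 2.0 and 4.86 in WT and 2.65, 2.71 and 2.39 in KO. The KO libraries were lower in naive cells without overlap, whereas in EpiLCs they lay between WT replicate 2 and the other WT libraries. Lefty1 per Lefty2 among naive libraries was 0.259, 0.177 and 0.331 (WT) and 0.179, 0.287 and 0.345 (KO), so the genotypes overlapped. Among EpiLCs it was 2.83, 1.67 and 3.2 (WT) and 3.39, 3.79 and 3.9 (KO). Lefty2 was thus the more abundant of the 2 per length in every naive library and Lefty1 in every EpiLC library. An exact permutation test over 3 against 3 libraries cannot give a 2-sided p below 0.1, and none was run on these ratios.

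**Figure D3:**
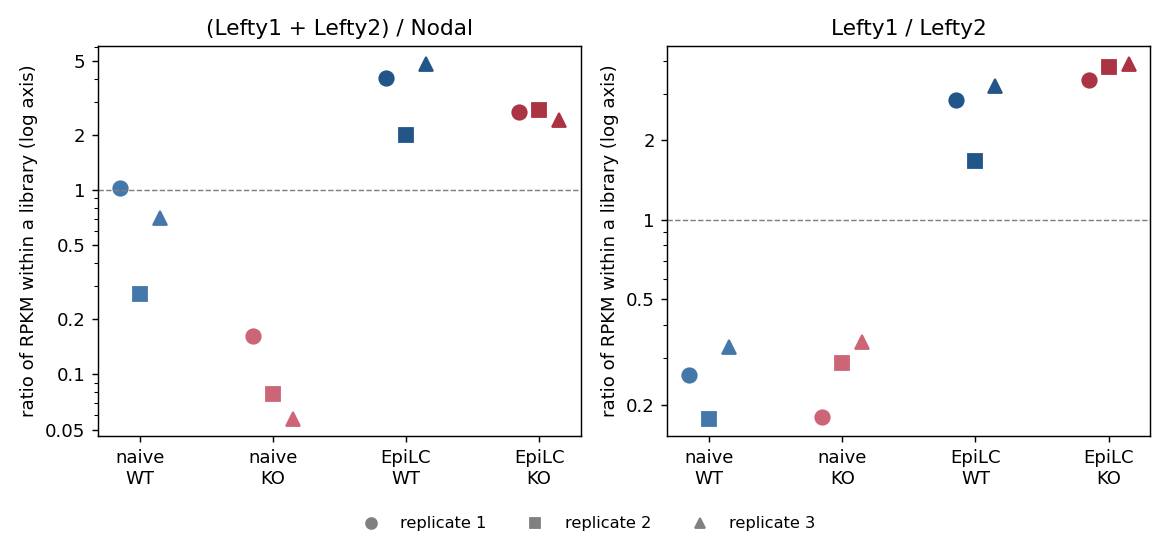
Ratios of RPKM within each library on log axes: the sum of Lefty1 and Lefty2 over Nodal, and Lefty1 over Lefty2, by group, with symbols for replicates 1 to 3 and a dashed line at 1. The antagonist to ligand ratio is 0.0573 to 0.161 in naive KO and 0.272 to 1.03 in naive WT, and Lefty1 over Lefty2 is below 1 in all 6 naive and above 1 in all 6 EpiLC libraries.

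Genes around the 4 called members were read for the same contrasts. Within 500 kb of the Lefty1 start site 19 other genes were tested in naive cells, with a median log2 fold change of 0. Of these 2 fell, Lefty2 and 1 further gene, and 0 rose, beside 4.95% of all genes fallen and 4.27% risen. Tmem63a, the nearest to Lefty1 at 7.3 kb, had 0.34 ± 0.304 (edgeR adjusted p = 0.547). Of 43 genes near Foxh1, 1 fell in naive cells, Kifc2, a kinesin gene (-0.62 ± 0.122, adjusted p = 0.00863). In EpiLCs 9 of the 43 fell, beside 7.86% of all genes, and 1 rose, with a median log2 fold change of -0.29. Kifc2 was the lowest of them (-1.06 ± 0.122, edgeR adjusted p = 0.000299). Kifc2 lies on the other strand and its end is 28 bases from that of Foxh1, and the reads were counted without strand, so reads past the end of 1 of the 2 genes can be counted for the other. Near Pmepa1 9 genes were tested in naive cells, and Zbp1, the nearest at 57.6 kb, had -2.45 ± 0.796 (adjusted p = 0.0755).

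**Figure D4:**
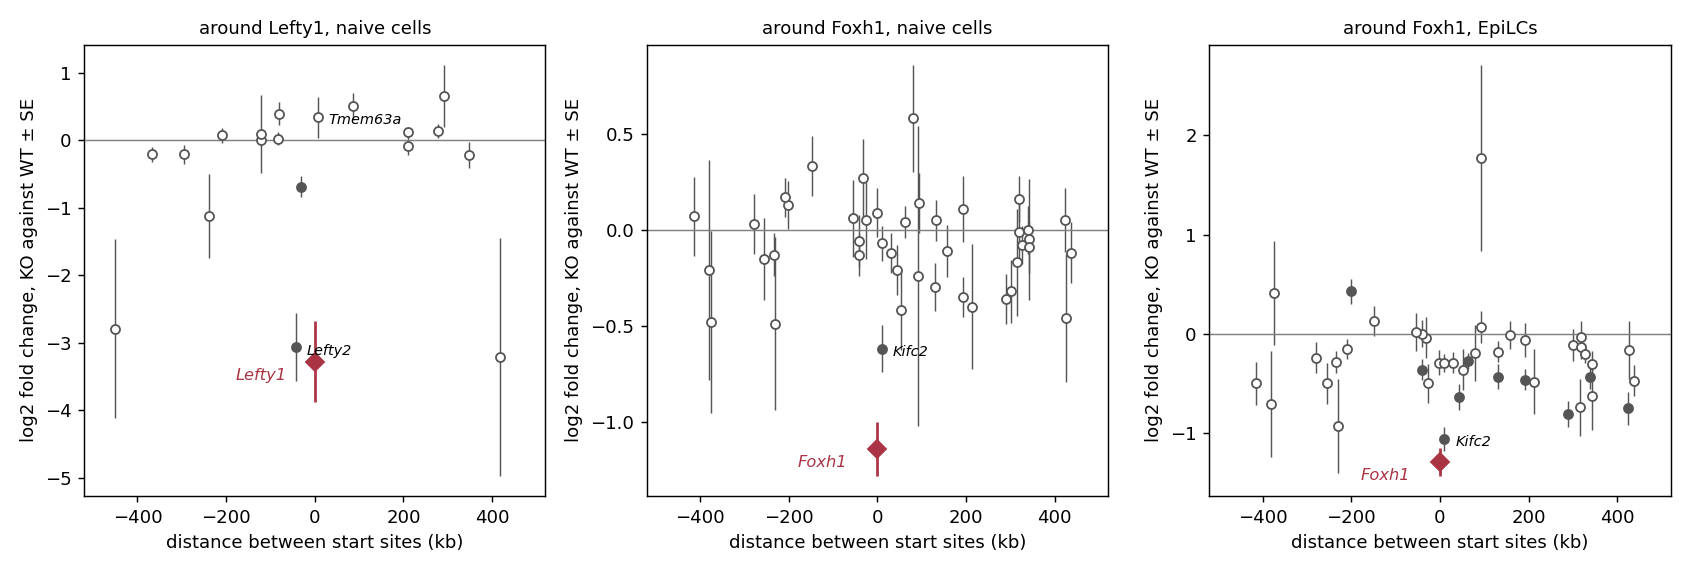
Log2 fold change ± SE of KO against WT for tested genes whose start site lies within 500 kb of that of Lefty1 (naive cells) and Foxh1 (naive cells and EpiLCs), against the distance between start sites in kb. Filled symbols passed the test; near Lefty1 these include Lefty2 (-3.07), while open symbols with wide errors reach -3.21, and Kifc2 is the lowest neighbour of Foxh1, at -0.62 and -1.06.

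The rest of the pathway was read from a list of 50 further genes, of which 43 were tested. In naive KO 1 of these fell and the other 42 did not pass. It was Smad3, the partner of Smad2 at the receptor, with 89.2, 71.7 and 92.7 CPM in naive WT and 45.3, 52.1 and 57.8 CPM in naive KO. All KO libraries were below the WT libraries. Smad3 fell by 0.71 ± 0.173 (edgeR adjusted p = 0.0236), a call lost without naive WT replicate 1 or 3 or naive KO replicate 1 or 2 (adjusted p of 0.0588 to 0.105). In EpiLCs Smad3 had 0.09 ± 0.173 (adjusted p = 0.764). Smad4, the shared partner of these SMADs, had 0.03 and 0.15 in naive cells and EpiLCs (edgeR adjusted p of 0.905 and 0.321).

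In EpiLC KO 5 of the 43 rose and 2 fell, beside 7.22% and 7.86% of all genes. Gdf3, a ligand that signals through the same receptors, had -0.07 ± 0.153 in naive cells and -0.21 ± 0.154 in EpiLCs (edgeR adjusted p of 0.837 and 0.388). Among receptors, 1 of 6 rose in EpiLC KO, Tgfbr1, the type I receptor for TGF-beta. It gave 22.1, 21.2 and 20.9 CPM in EpiLC WT and 53.4, 32.3 and 41.2 CPM in EpiLC KO, without overlap. Tgfbr1 rose by 0.98 ± 0.168 (edgeR adjusted p = 0.00292), and its naive difference of 0.57 ± 0.166 did not pass (adjusted p = 0.0517, and 0.0268 with DESeq2). Acvr1b, the type I receptor for NODAL and activin, had 0.29 ± 0.119 among naive libraries (edgeR adjusted p = 0.16) and 0.22 ± 0.121 among EpiLC libraries (adjusted p = 0.234). Among SMAD regulators 1 of 14 fell in EpiLC KO, Zfyve9, which encodes the SMAD anchor SARA (-0.51 ± 0.151, adjusted p = 0.0383), a call lost without EpiLC WT replicate 3 or any 1 KO library (adjusted p of 0.0791 to 0.138).

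Of 11 tested nuclear partners and targets in epiblast or streak, 4 rose in EpiLC KO. Lhx1, a homeobox gene of the node and mesendoderm, gave 0.242, 0.0747 and 0.0333 CPM in EpiLC WT and 2.36, 2.43 and 0.873 CPM in EpiLC KO. Gsc, the homeobox gene goosecoid, gave 0.0269, 0.0747 and 0.2 CPM in WT and 0.321, 0.581 and 0.31 CPM in KO. Both were higher in KO without overlap, at levels of a few CPM or less. Lhx1 rose by 3.90 ± 0.657 (edgeR adjusted p = 0.00278) and Gsc by 2.02 ± 0.51 (adjusted p = 0.0203), the latter lost without EpiLC WT replicate 1 (0.0767) or KO replicate 2 (0.0679). Eomes, a T-box gene of the streak, rose from 9, 9.52 and 4.76 CPM to 17.3, 12.2 and 17.5 CPM (1.01 ± 0.291, adjusted p = 0.035). Junb, a gene of the AP-1 family, rose by 0.67 ± 0.189 (edgeR adjusted p = 0.0339). Its means were 5.15 CPM in EpiLC WT and 8.17 CPM in EpiLC KO, below those of naive WT (19.7 CPM) and naive KO (21.9 CPM). The calls of Eomes and Junb were lost without any 1 of several libraries: EpiLC WT replicates 1 and 3 and KO replicates 1 and 3 for both of them, and also KO replicate 2 for Junb (adjusted p of 0.0572 to 0.113). A fit of the 6 EpiLC libraries alone did not call Gsc, Junb or Zfyve9 (adjusted p of 0.058 to 0.0741). In the same cultures the summed level of streak and mesoderm markers, a list that includes Eomes and Gsc, was 10.6 to 20.8 CPM in EpiLC WT and 20.8 to 31.0 CPM in EpiLC KO, and that of endoderm markers was higher in KO as given above; their part in these calls was not tested.

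Between conditions 11 of the 43 genes rose and 17 fell in WT, beside 26.4% and 26.3% of all genes. In KO 13 rose and 13 fell, beside 27.1% and 28.1%. Acvr1b fell by 1.28 ± 0.122 in WT (edgeR adjusted p = 3.27e-06) and by 1.34 ± 0.122 in KO (adjusted p = 1.8e-06), while the type II receptor gene Acvr2b rose. Smad3 fell by 1.31 ± 0.175 in WT and by 0.50 ± 0.173 in KO (adjusted p of 5.21e-05 and 0.0258), the KO call being lost without replicate 2 or 3 of naive KO or of EpiLC KO (adjusted p of 0.0727 to 0.119). Gdf3 fell by 0.54 ± 0.154 in WT and 0.69 ± 0.154 in KO (adjusted p of 0.0097 and 0.0021).

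The genes whose profile over the 12 libraries was most like that of 3 members were found among 10098 genes by the root-mean-square difference of centred log2 CPM. For Foxh1 they were Gne (0.242), Rbck1 (0.244), Gldc (0.26), Cldn3 (0.273) and Ryr1 (0.28). Gldc, of the mitochondrial glycine cleavage system, had means of 247.4, 80.5, 606.6 and 248.5 CPM in the WT and KO groups of naive cells and then of EpiLCs. For Lefty1 they were Wdr86 (0.645), Kcnk1 (0.724), Igtp (0.787), Irgm1 (0.841) and Ccdc136 (0.848). The difference is not scaled to the size of a gene's changes, which were larger for Lefty1 than for Foxh1. Distances to these 2 genes can therefore not be compared. Members, Lefty2 among them, were not searched. Ccdc136 had means of 9.55, 2.3, 181.0 and 91.1 CPM in the same order of groups. For Nodal they were Rpl29 (0.1), Tuba1c (0.106), Rps3 (0.11), Mcm5 (0.114) and Rpl8 (0.115), among them ribosomal protein and replication genes of little change between groups. The 12 libraries share their 6 clones and 2 media, and the differences are descriptions with no test.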

How the data were processed

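Per the file headers, the authors counted reads per gene with featureCounts 2.0.1 on GENCODE vM25, without strand, from STAR alignments to GRCm38; the submitters' processing notes also name fastp, FastQC and DESeq2, with no versions. The deposited values are raw counts for 12 libraries, and the deposited table also gives the exon length per gene (another unit, in bases), used here for RPKM. CPM values use edgeR's TMM factors (edgeR 4.0.16, R 4.3.3). filterByExpr (minimum count 10, minimum total count 15) left 18134 genes, and 37353 were not tested. All 12 libraries entered 1 quasi-likelihood fit (glmQLFit, glmQLFTest) with 5 contrasts. A gene was called at a Benjamini-Hochberg adjusted p under 0.05 over all tested genes, and every adjusted p is from edgeR unless DESeq2 (1.42.0) is named. The SE is the log2 fold change divided by the square root of F. The fit was tested on simulated counts.

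The alternatives were RLE size factors, DESeq2, no filter, a replicate block, the 2 groups alone, and leaving out each library. Libraries of the same genotype and replicate number deviated together across conditions (correlations of 0.145 to 0.264), so the number was used as the clone. Different numbers of a genotype had -0.248 to 0.0483 across conditions. Different numbers of the 2 genotypes had -0.143 to 0.287, so a value this high does not by itself mark a clone. The highest were 0.287 (EpiLC WT replicate 3, EpiLC KO replicate 1) and 0.204 (EpiLC WT replicate 2, EpiLC KO replicate 3). The labels do not say that a number is the same clone in both conditions. Its use as the clone is an inference from the check within genotypes. Deviations were taken from the means of groups of 3, which ties low values for different numbers to high ones for equal numbers. The values for different numbers are therefore no separate support. Correlations of same-numbered KO and WT libraries lay between -0.266 and 0.00895, so genotypes were not paired. No 2 libraries of a group agreed within sampling noise.

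The members, gene lists and tests were chosen with earlier results of these data known. Named beside the members were up to 4 called genes per pathway list, with Acvr1b, Smad3, Smad4, Gdf3 and Eomes in any case; the 5 most like profiles (mean of at least 5 CPM) for Lefty1, Nodal and Foxh1; and neighbours within 500 kb, with up to the 3 nearest named. RefSeq promoters (GRCm38.p6) matched 3 members and are not used. A few genes covered by these rules are not reported here.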

Additional observations from a re-analysis of the deposited data

Results flagged for a closer look

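For Lefty1 the effect of genotype differed between the conditions in the fit with the clone, inferred from the replicate number, as a replicate block. The EpiLC difference minus the naive difference was 2.52 ± 0.324 on the log2 scale (SE, n = 3 clones per genotype, edgeR adjusted p = 0.019). The KO mean was 1.04 against 10.1 CPM in WT in naive cells, and 124 against 187.2 CPM in EpiLCs.

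For Pmepa1 the same test gave 2.26 ± 0.371 (edgeR adjusted p = 0.0343). KO libraries held 6.57 to 18.1 CPM against 25 to 28.8 CPM in WT in naive cells, and 34.9 to 41.6 CPM against 13.2 to 25.2 CPM in EpiLCs. Neither passed in the fit without the block (edgeR adjusted p of 0.168 for Lefty1 and 0.067 for Pmepa1). EpiLC WT replicate 2, the library with more naive markers, was the lowest EpiLC WT library for both genes. The fit with the block was not run without it.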

How the results depend on the processing

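Over 630 alternative values of the 50 member results, 605 kept their direction and side of the threshold, 0 reversed, 6 lost a call (all Pmepa1 in naive cells) and 19, of 7 results, gained one. The number of members called for genotype in EpiLCs was 1, and 2 with DESeq2, 3 without a filter, 2 with a replicate block (Foxh1 and Pmepa1, the latter 0.91, edgeR adjusted p = 0.0467) and 3 in the 2 groups alone. Over all genes these settings called, in that order, 2734 of 18134, 3530 of 20708, 3385 of 36121, 2552 of 18134 and 1975 of 16862. The interaction called 69 genes, 507 with DESeq2, 564 without a filter, 30 with the replicate number as a block and 228 with the clone as a replicate block. Of the members it called 0, and 1, 3 and 2 with DESeq2, without a filter and with the clone block. Leaving out 1 library gave 678 to 1744 genes called in naive cells (1673 with all), the lowest without KO replicate 1, 850 without WT replicate 3 and 1115 without WT replicate 1. In EpiLCs it gave 1375 to 3117 (2734 with all), the lowest without KO replicate 1, 1754 without WT replicate 3 and 1814 without KO replicate 3. The interaction ranged from 3 genes (without EpiLC KO replicate 1) to 149 (without EpiLC WT replicate 2), and from 0 to 1 member. The number of members called ranged from 3 to 4 in naive cells and was 1 each time in EpiLCs. Beside the changes named for Lefty2, Pmepa1 and the interaction, the block changed no other member's call. Lefty1 in naive KO rests on about 1 CPM per library, which limits the precision of its fold change. The causes of these changes were not tested.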
